A study of Mus musculus with 8 samples.

Results

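The mitochondrial chromosome encodes 13 proteins, and the 10 mitochondrially encoded mRNAs described here are mt-Nd1, mt-Nd2, mt-Nd4l, mt-Nd4, mt-Nd5 and mt-Nd6, which encode subunits of respiratory complex I (NADH dehydrogenase), mt-Cytb, which encodes cytochrome b of complex III, and mt-Co1, mt-Co2 and mt-Co3, which encode the core subunits of complex IV (cytochrome c oxidase). A peak was counted for an mRNA if it lay on the mitochondrial chromosome, on the strand of that mRNA, and shared 1 base or more with its span. By this rule 35 of the 105252 deposited peaks belonged to the set, in 10 of the 75389 regions that result when same-strand peaks of all lists are merged. The members were thus chosen from the called peaks themselves, so the presence of peaks in the set is a description. Of the 10 mRNAs, 8 carried a peak in at least 1 list, while mt-Co2 and mt-Co3 carried a peak in 0 of the 4 lists.

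The data are acetylated RNA immunoprecipitation sequencing (acRIP-seq), in which fragmented RNA is pulled down with an antibody to N4-acetylcytidine (ac4C, cytidine carrying an acetyl group) and sequenced beside an untreated input portion. The cells were mouse bone marrow-derived monocytes taken through 3 days of RANKL, the cytokine that drives monocytes towards bone-resorbing osteoclasts, and all groups received it. They were of WT genotype or carried a Nat10 conditional knockout (CKO), and Nat10 is the gene of the acetyltransferase known to place ac4C on RNA. From the 8 samples (4 IP and 4 input) the authors made 4 peak lists, 2 per genotype, called WT 1, WT 2, CKO 1 and CKO 2 here. Neither the promoter that drives Cre nor the age, sex and strain of the mice is given in the labels. Nothing says whether the lists of a genotype came from separate mice or cultures, so the spread between them may be technical. The lists hold no read counts and no gene names: the depth is unknown, an absent peak means no call and not an absence of ac4C, and neither the loss of Nat10 nor markers of the cell type were checked here.

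Mitochondrial mRNAs are made inside the organelle and differ from nuclear ones. Long precursor RNAs are transcribed from both strands of the circular genome and cut apart, largely at the tRNAs that lie between the coding sequences, so the mRNAs have no introns and almost no untranslated ends. All are read from the plus strand except mt-Nd6, the lone mRNA of the opposite strand. Osteoclasts are known for being especially rich in mitochondria.

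The lists held 8 (WT 1), 7 (WT 2), 11 (CKO 1) and 9 (CKO 2) peaks in these mRNAs, which came to 0.0285%, 0.0282%, 0.0392% and 0.0371% of all peaks of the list. No mitochondrial peak fell outside the 10 mRNAs. MACS2, the peak caller, numbers its calls, and the numbers rose along the file in every list, so a number missing between neighbours marks a call that is not in the list. Over whole lists 45.3% to 62.8% of the numbers were present. Between the first and the last mitochondrial peak 0 numbers were missing in each list. The mRNA filter thus left out no whole numbered call there, and no separate numbered call lay in the stretches without a peak. The numbers do not show whether a call was cut at the end of an mRNA, where 4 of the 35 peaks ended. In WT 1 and CKO 2 the first mitochondrial peak, in mt-Nd1, also followed the last peak of the preceding chromosome with 0 numbers missing, so in those lists no numbered call lay in the 2 mitochondrial rRNAs upstream of it.

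**Figure D1:**
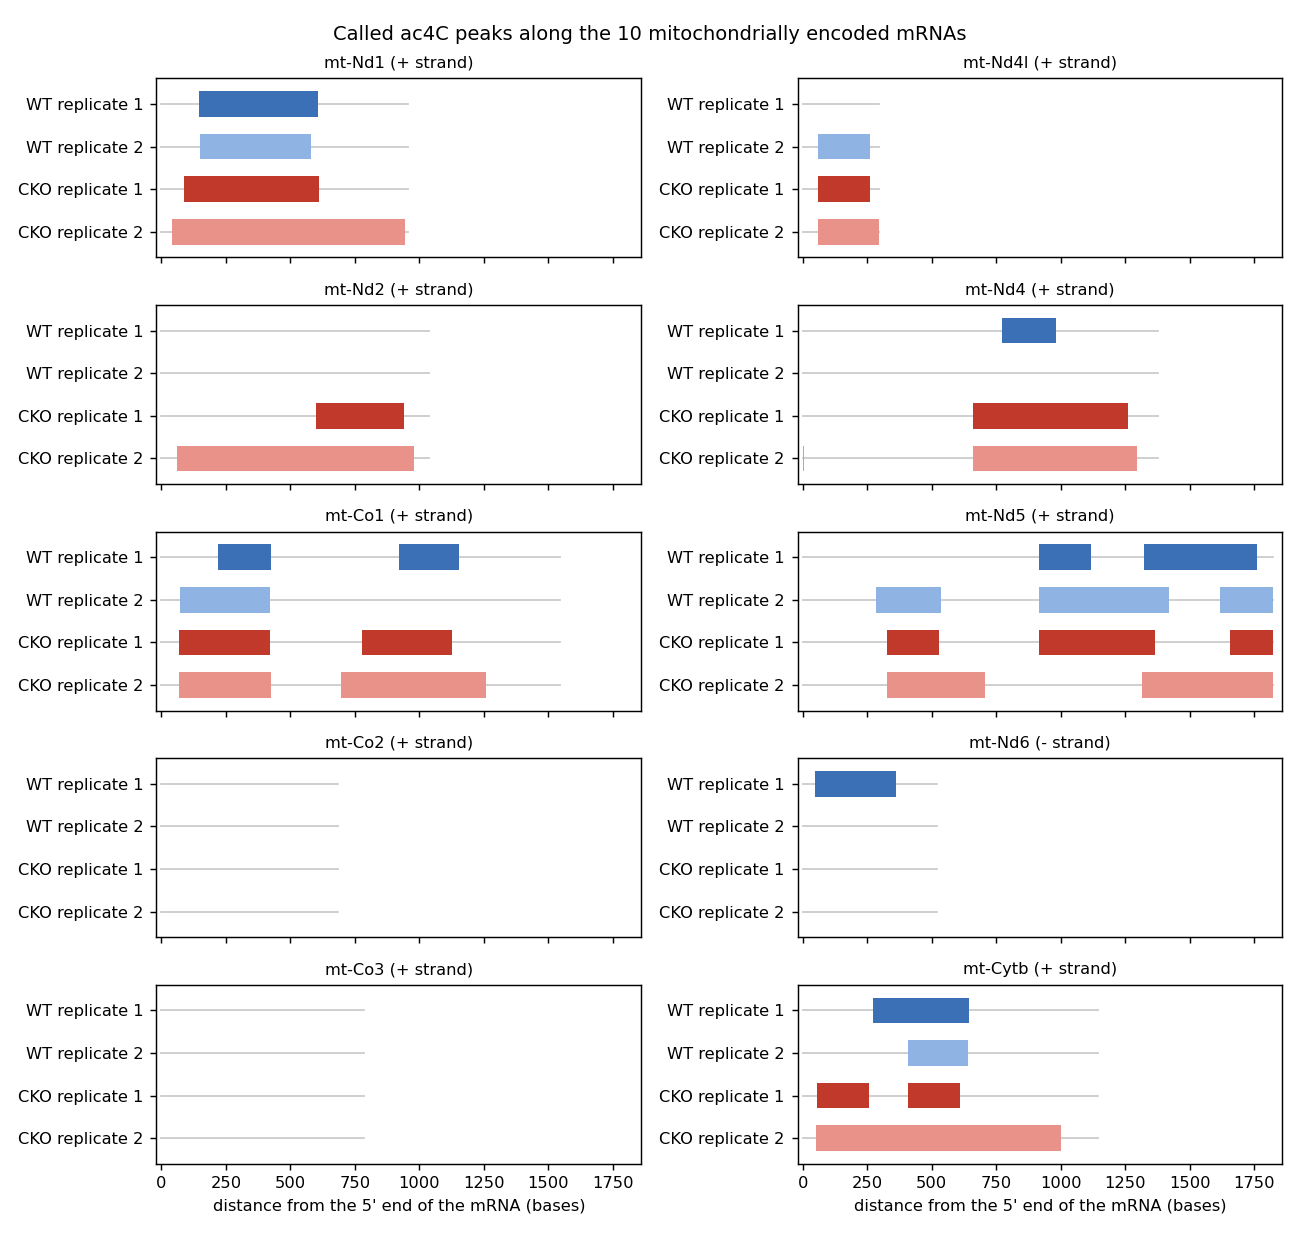
Called peaks along each mitochondrially encoded mRNA; the horizontal axis is the distance from the 5′ end of the mRNA in bases, each row is a list (blue, WT; red, CKO), grey lines show the mRNA and bars the peaks. The same places recur between lists, mt-Nd2 has bars only in the CKO rows, mt-Nd6 only in WT 1, and mt-Co2 and mt-Co3 have none.

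Complex I mRNAs held 23 of the 35 peaks (65.7%) and make up 59.1% of the span bases. mt-Nd1, a membrane-arm subunit at the start of the coding part of the genome (chrM, mm39, bases 2751 to 3707), carried a single peak in every list. The peak covered 461 bases in WT 1 (2898 to 3358), 429 in WT 2 (2901 to 3329), 521 in CKO 1 (2839 to 3359) and 907 in CKO 2 (2790 to 3696). The 429 bases of the WT 2 peak lay inside all of the others. This was the longest stretch covered in all 4 lists, and CKO 2 reached beyond both WT peaks on both sides, CKO 1 mainly on the 5′ side. The authors' score is a deposited value of unstated quantity, used here only to rank peaks within a list. By this score the mt-Nd1 peak stood at percentile 98.4 of WT 1, 97.4 of WT 2, 99.9 of CKO 1 and 98.8 of CKO 2. Its covered bases differed by 269 (CKO minus WT), by 76 without CKO 2 and by 462 without CKO 1. mt-Nd1 was among the highest-scored sites of every list.

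mt-Nd2, another membrane-arm subunit (bases 3914 to 4951), was called in each CKO list and in no WT list. The peak covered 339 bases in CKO 1 (4515 to 4853, percentile 57.9) and 919 in CKO 2 (3976 to 4894, percentile 97.8), or 32.7% and 88.5% of the mRNA. It was the only 1 of the 10 mitochondrial regions held in this way, and over all regions 3.64% were held by both CKO lists alone. The reverse, a call in WT 1 and WT 2 alone, was made in 0 mitochondrial regions and 4.26% of all regions. With 10 regions, 1 such call says little against this background.

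mt-Nd4l and mt-Nd4 encode membrane-arm subunits from a shared transcript, in which the end of mt-Nd4l (9877 to 10173) overlaps the start of mt-Nd4 (10167 to 11544). In mt-Nd4l the peak ran from 9937 to 10136 in both WT 2 and CKO 1 and from 9936 to 10173 in CKO 2, whereas WT 1 had none. The CKO 2 peak ended on the last base of mt-Nd4l and so shared 7 bases with mt-Nd4, the only peak that touched more than 1 member. Further along, mt-Nd4 had a peak at 10941 to 11147 in WT 1, 10828 to 11429 in CKO 1 and 10828 to 11463 in CKO 2, and none in WT 2. Covered bases of mt-Nd4 were 207 in WT 1, 0 in WT 2, 602 in CKO 1 and 643 in CKO 2. The genotypes did not overlap in mt-Nd4, and in mt-Nd4l they did.

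mt-Nd5, the longest of the mRNAs at 1824 bases (11742 to 13565), carried 2 peaks in WT 1, 3 in WT 2, 3 in CKO 1 and 2 in CKO 2. Its covered bases were 638, 963, 817 and 887 in the same order, so WT 2 was above both CKO lists and WT 1 below them. A 5′ peak starting between 12025 and 12069 was present in WT 2, CKO 1 and CKO 2. A second began at 12659 in both WT lists and at 12660 in CKO 1, and CKO 2 had no call there before base 13057. Towards the 3′ end, 105 bases (13399 to 13503) were covered in all 4 lists. The last peak ended on base 13565, the final base of mt-Nd5, in WT 2, CKO 1 and CKO 2. Together with the CKO 2 peak of mt-Nd4l, 4 of the 35 peaks ended on the last base of their mRNA.

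mt-Nd6, the complex I subunit encoded on the minus strand (13552 to 14070), carried a peak in WT 1 alone, at 13709 to 14022. It covered 314 bases, or 60.5% of the mRNA, at percentile 56.1. No other peak on the chromosome was listed on the minus strand. How the strand was set is not stated in the labels, so the listed strand may not be that of the RNA pulled down. This single call supports no comparison of the genotypes.

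mt-Cytb, the one mitochondrially encoded subunit of complex III (14145 to 15288), carried a peak in every list but was ranked differently. Covered bases were 371 in WT 1 (14417 to 14787), 233 in WT 2 (14554 to 14786), 403 in CKO 1 (14200 to 14402 and 14553 to 14752) and 953 in CKO 2 (14195 to 15147). Its core, 199 bases at 14554 to 14752, was called in all lists. The best peak stood at percentile 99.7 of WT 1 and 98.4 of WT 2 but at 27.1 of CKO 1 and 35.3 of CKO 2. The CKO lists thus covered more of mt-Cytb with peaks that stood low in their own lists. CKO 1 did so narrowly (403 bases against 371 in WT 1), through a separate 203-base peak at percentile 19.1. At the core the 200-base peak of CKO 1 was narrower than both WT peaks. In the top 50% of each list by score the mRNA had no CKO peak, so that the difference in covered bases (CKO minus WT) turned from 376 to -302. Over all peaks it was 101 without CKO 2 and 651 without CKO 1.

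mt-Co1, the catalytic subunit of complex IV (5328 to 6872), showed the opposite order of ranks. Its 5′ peak was called at 5547 to 5751 in WT 1, 5401 to 5749 in WT 2, 5397 to 5749 in CKO 1 and 5397 to 5752 in CKO 2. The 3′ ends lay within 3 bases of each other in all 4 lists. It stood at percentile 1.32 of WT 1 and 28.7 of WT 2, and at 98.9 of CKO 1 and 99.7 of CKO 2. Near the lowest score of WT 1, the same site was among the highest-scored of both CKO lists. A second peak, further 3′, covered 232 bases in WT 1 (6250 to 6481, percentile 95.4), 351 in CKO 1 (6105 to 6455, percentile 70.2) and 562 in CKO 2 (6024 to 6585, percentile 99.4), and was not called in WT 2.

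Lists called separately and of different lengths do not share a scale, so these percentiles place a site within a list and measure no change of ac4C. Among the 727 regions held by all 4 lists, both CKO lists placed the best peak higher than either WT list in 13.8% and by more than 50 points in 0.413%. Both WT lists placed it higher in 20.2% and by more than 50 points in 1.51%. Of the 4 mitochondrial regions in that set, the 5′ region of mt-Co1 (by 70.2 points) and that of mt-Nd1 (by 0.36 points) belonged to the first kind and mt-Cytb (by 63.1 points) to the second. The 3′ region of mt-Nd5 belonged to neither.

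**Figure D2:**
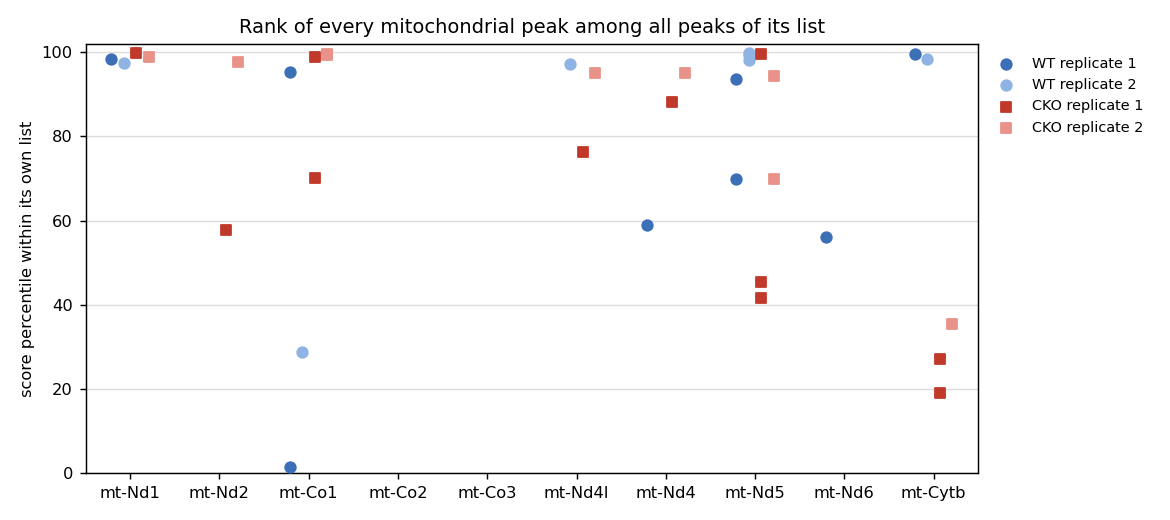
Rank of each of the 35 mitochondrial peaks among all peaks of its own list; the vertical axis is the percentile of the authors' score within the list, circles are WT and squares CKO, and the peak that touches 2 mRNAs is drawn at mt-Nd4l. The lowest WT points are the mt-Co1 peaks at 1.32 and 28.7, and all mt-Cytb points of the CKO lists lie at 35.3 or lower.

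The members ranked high more often than low. Of the 35 peaks, 28 stood in the upper 50% of their list, 20 above percentile 90 and 7 above percentile 99. Those below percentile 30 numbered 4 and lay in mt-Co1 (WT 1 and WT 2) and mt-Cytb (CKO 1, with 2 peaks). The median percentile of the mitochondrial peaks was 81.8 in WT 1, 98.2 in WT 2, 70.2 in CKO 1 and 95.2 in CKO 2, so the replicate-2 lists were the higher of each genotype and the genotypes overlapped.

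No list called a peak between base 6586, in the 3′ part of mt-Co1, and base 9935, in mt-Nd4l. This was the longest gap between neighbouring peaks (3350 bases), and it holds mt-Co2 and mt-Co3 as well as the 3 mitochondrial mRNAs outside the set, mt-Atp8, mt-Atp6 (complex V, ATP synthase) and mt-Nd3 (complex I), which were touched by 0 peaks. Within the set, peaks were present in 1 of 3 complex IV mRNAs and in 6 of 6 complex I mRNAs, in mt-Nd6 by WT 1 alone. The set was chosen from the called peaks and leaves out mt-Nd3, so these counts do not compare the complexes. Nuclear copies of mitochondrial sequence are known in the mouse genome. The gene table used here lists a pseudogene Gm10925 on chromosome 1 with mt-Atp6 as a synonym and the same length as mt-Atp6 (681 bases). How reads that match both places were handled is not stated in the labels, and its part in the absent calls was not tested.

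Summed over the set, both CKO lists covered more bases than either WT list. Covered bases were 2428 in WT 1, 2174 in WT 2, 3586 in CKO 1 and 5458 in CKO 2, or 23.9%, 21.4%, 35.3% and 53.7% of the 10163 bases of the spans. The WT mean was 2301 ± 179.6 and the CKO mean 4522 ± 1324 (SD, 2 lists per genotype), a ratio of 1.97. The difference of 2221 bases was 1285 without CKO 2 and 3157 without CKO 1. CKO 2 covered the most mitochondrial bases and the fewest nuclear ones (3.27 Mb, against 3.58 in WT 1, 3.54 in WT 2 and 3.65 in CKO 1). On the 20 nuclear chromosomes with peaks in every list the ratio of CKO to WT covered bases ran from 0.869 to 1.06. Both CKO lists exceeded both WT lists on 0 of these chromosomes, and the reverse held on 5. Each of them had 80528 or more covered bases per list, so its ratio averages over far more peaks than that of the mitochondrial mRNAs. Nuclear stretches with at least 7 peaks in every list, described below, had ratios from 0.618 to 1.64.

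The difference had the same direction in each complex, but in complex III (mt-Cytb) and complex IV (mt-Co1) only 1 mRNA each carried peaks. In the top 50% of each list by score, the difference in mt-Cytb was -302. Complex I mRNAs had 1620 and 1592 covered bases in WT and 2479 and 3594 in CKO, mt-Cytb 371 and 233 against 403 and 953, and the complex IV mRNAs, through mt-Co1, 437 and 349 against 704 and 918. By mRNA, both CKO lists covered more than either WT list in 5 of 10 (mt-Nd1, mt-Nd2, mt-Co1, mt-Nd4 and mt-Cytb) and the reverse was seen in 0. No share by mRNA was computed for nuclear genes. By region, a different unit, the shares over all regions were 4.41% and 5.41%. Over the 25 nuclear stretches with at least 7 peaks in every list they were 16.0% and 12.0%. The 10 mRNAs were called in the same 4 lists, so they are not separate pieces of evidence. Each of the 5 mRNAs had an exact two-sided permutation p of 0.333 (adjusted p = 0.667 over the 10 mRNAs). This is the smallest p that 2 lists against 2 allow, so the design cannot reach the usual threshold. The genotypes overlapped in mt-Nd4l, mt-Nd5 and mt-Nd6.

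**Figure D3:**
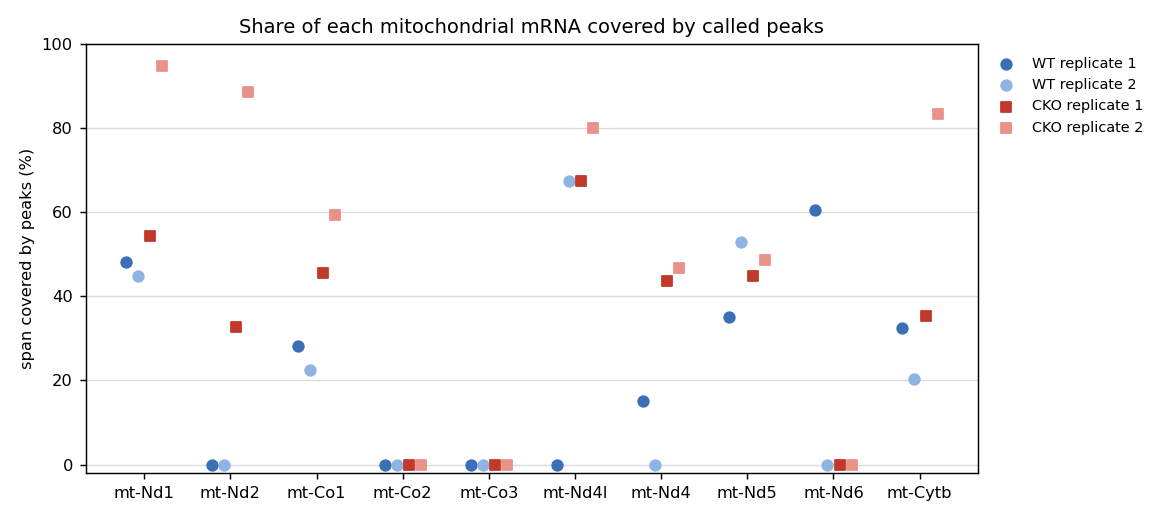
Share of each mRNA covered by called peaks; the vertical axis is percent of the span, with 1 point per list (circles, WT; squares, CKO). In mt-Nd1, mt-Nd2, mt-Co1, mt-Nd4 and mt-Cytb both squares lie above both circles, and CKO 2 reaches 94.8% in mt-Nd1.

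By region, 6 of the 10 had more covered bases in both CKO lists than in either WT list and 1 (the 3′ region of mt-Nd5) had fewer, where 4.41% and 5.41% of all regions did so. The 6 lay in mt-Nd1, mt-Nd2, mt-Co1 (both regions), mt-Nd4 and mt-Cytb. The 5′ region of mt-Co1 met the condition narrowly, with 205 and 349 bases in WT and 353 and 356 in CKO. In mt-Cytb CKO 1 also met it narrowly, with 403 bases against 371 in WT 1. A region in a single list cannot meet this condition. Among regions held by 3 or 4 lists the count was 5 of 8, against 10.8% of such regions overall. Every mitochondrial region held by 3 lists was held by both CKO lists and 1 WT list. The 10.8% also counts regions held by both WT lists and 1 CKO list, which cannot meet the condition. The comparison is therefore not a like one. Nuclear stretches with many peaks were set beside the mRNAs as well: chaining same-strand peaks across gaps of up to 5000 bases gave 25 nuclear stretches with at least 7 peaks in every list. Both CKO lists covered more than either WT list in 4 of these (16.0%), and the reverse was seen in 3 (12.0%). Their ratio of CKO to WT covered bases had a median of 0.985 and ran from 0.618 to 1.64, below the 1.97 of the mitochondrial mRNAs in all 25 (0.0% reached it). This rested on CKO 2 and on WT 1: without CKO 2 the mitochondrial ratio was 1.56 and 2 of the 25 reached it, and without WT 1 it was 2.08 and 1 reached it. The median mitochondrial peak spanned 273 and 252 bases in WT and 339 and 562 in CKO. The median nuclear peak spanned 113 and 110 in WT and 115 and 120 in CKO, while the width that 95% of nuclear peaks do not exceed came to 260 (WT 1), 373 (WT 2), 273 (CKO 1) and 301 (CKO 2), so that WT 2 had the widest nuclear peaks by that measure. The number of reads behind these widths is unknown, and the part of mitochondrial read depth in the difference was not tested.

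Mitochondrial peaks were broad beside the nuclear peaks of the lists. Of the 35, 34 were 200 bases wide or wider, and 4 were exactly 200. The exception was the 167-base peak in CKO 1, which ended on the last base of mt-Nd5. Whether calls had a minimum length is not stated in the labels, and its part in this count was not tested. The count of 34 therefore does not show breadth by itself. Of the nuclear peaks 28.7% to 35.0% of a list reached 200 bases. The widest mitochondrial peaks, 953 bases in mt-Cytb, 919 in mt-Nd2 and 907 in mt-Nd1, were all of CKO 2 and wider than 99.96%, 99.95% and 99.95% of its nuclear peaks. How nuclear peaks were cut to mRNA is not stated in the labels, and the part of that step in the width was not tested.

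Within the mRNAs, peaks did not gather at one common place. With each mRNA cut into 3 equal parts, the 8 mRNAs with a peak had 33.7% of the 5′ part covered, 49.9% of the middle part and 33.9% of the 3′ part, averaged over lists and mRNAs. The middle part was the most covered in 4 of them (mt-Nd1, mt-Nd4l, mt-Nd6 and mt-Cytb), the 3′ part in 3 (mt-Nd2, mt-Nd4 and mt-Nd5) and the 5′ part in mt-Co1. For mt-Nd4l this follows from peak width: a peak of 200 bases or more inside its 297 bases has to cover the whole middle part. The mt-Nd6 value rests on the single WT 1 peak, 314 of 519 bases, which has to cover most of the middle part. Both mRNAs also enter the mean of 49.9%.

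The lists shared many mitochondrial regions but fewer of the bases in them. Of the 6214 mitochondrial bases covered in any list, 15.7% were covered in all 4 lists, 22.4% in 3, 27.6% in 2 and 34.3% in 1. Of the 10 regions, 4 (in mt-Nd1, mt-Co1, mt-Nd5 and mt-Cytb) were held by all 4 lists and 8 by 3 or 4 lists, where 0.964% and 7.21% of all regions were, and 9.54% of all regions of 200 bases or longer were held by 3 or 4. Both CKO lists held 9 of the mitochondrial regions (7.71% of all regions) and both WT lists 4 (8.36%). The Jaccard index, bases covered in both lists over bases covered in either, was 0.397 for the WT pair and 0.544 for the CKO pair on the mitochondrial chromosome. Across the genotypes, WT 1 gave 0.370 against CKO 1 and 0.321 against CKO 2, and WT 2 gave 0.530 against CKO 1 and 0.294 against CKO 2. The index of WT 2 was thus higher against CKO 1, which covered 35.3% of the spans, than against WT 1, which covered 23.9%. For nuclear peaks the index lay between 0.0895 and 0.0990, and in the 25 dense nuclear stretches its median lay between 0.121 and 0.146. In 4 of the 6 pairs, 1 or 2 of these stretches reached the mitochondrial value, and in the other 2 none did. The index rises with the share of sequence covered, which was 21.4% (WT 2) to 53.7% (CKO 2) of the mitochondrial spans. No correction for this was made, so these values do not rank agreement between pairs or between mitochondrial and nuclear peaks. Shared bases did not mean shared edges: of 45 overlapping pairs of mitochondrial peaks from different lists, 31.1% began within 5 bases of each other and 26.7% ended so. Of the nuclear pairs, 51.5% and 51.3% did. Nuclear peaks were narrower at the median and were cut to mRNA in an unstated way, so the comparison is not a like one. The part of that cut in the shared nuclear edges was not tested.

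**Figure D4:**
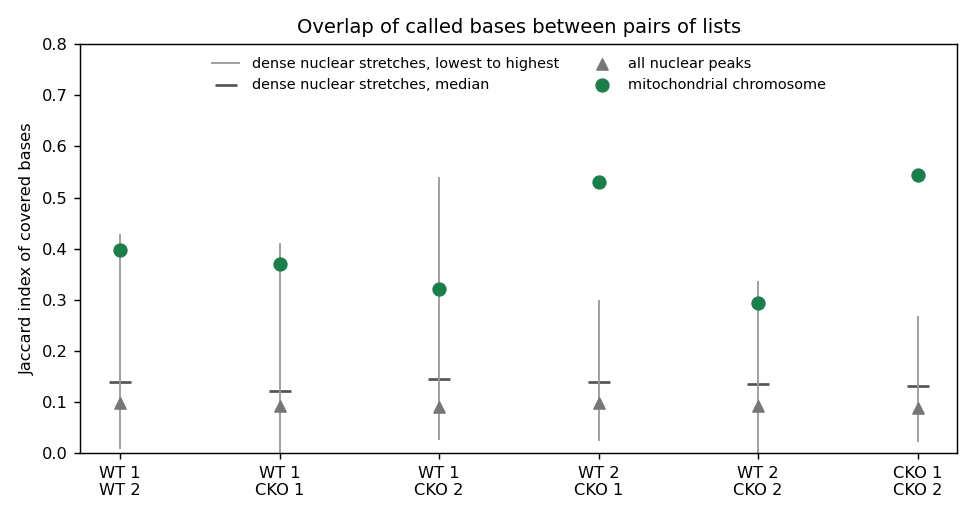
Jaccard index of covered bases for the 6 pairs of lists; green circles are the mitochondrial chromosome, triangles all nuclear peaks, and grey lines and bars the range and median of 25 dense nuclear stretches. The mitochondrial values run from 0.294 to 0.544 and the values over all nuclear peaks run from 0.0895 to 0.0990.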

How the data were processed

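The submitters' processing notes name fastp (0.20.1), the aligner STAR (2.7.8a), the caller MACS2 (2.2.7.1) and build mm39 (GRCm39). Per the labels, peaks were called with MACS2 on IP over input; peak names show 1 call set per library. The steps that limited the lists to mRNA and set the strand are not stated there. Scores are the authors' deposited values, of unstated quantity. The other columns used are the deposited peak positions, read as BED and printed counting from 1. Depth is unknown.

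Spans came from the rule and equalled those of the gene table, whose own assembly is GRCm38.p6. Covered bases were compared per mRNA by exact permutation with Benjamini-Hochberg adjustment; sums over mRNAs have no test. Functions were tested on simulated lists. Python 3.11.15, numpy 2.4.6 and pandas 2.3.3 were used. Members, lists and the dense-stretch comparison were chosen with earlier results of these data known. All 10 members are named. No mm39 annotation was given, so the planned lists of nuclear respiratory chain genes and cell type markers were not run.

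Replicate numbers 1 and 2 are shared by the genotypes, but nothing says that they pair samples. Alternatives changed the overlap, score, width, strand, merging and list-size choices and left out each list.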

Additional observations from a re-analysis of the deposited data

How the results depend on the processing

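The difference in covered bases (CKO minus WT, 2221) kept its direction in every setting tried, from 1285 (without CKO 2) to 3157 (without CKO 1), as did those in peaks and in mRNAs with a peak. In the top 50% of each list by score, the difference in peaks went from 2.5 to 1.0, regions held by both CKO lists alone from 1 to 2, by both WT lists alone from 0 to 1 and by all 4 lists from 4 to 2; in that setting the covered-base difference turned to -302 in mt-Cytb and from 51.5 to -273.5 in mt-Nd5. Among peaks 200 or more bases wide it was -32.0 in mt-Nd5, where it also ran from -111.0 (without WT 1) to 214.0 (without WT 2) with 1 list left out. With 1 list left out, regions held by CKO alone came to 1 to 3 and by WT alone to 0 to 1, because 1 genotype then has 1 list. With the replicate number as a block the differences were the same (2221 bases, 2.5 peaks), and regions in the CKO or WT list alone averaged 3.5 and 0.5, again with 1 list per genotype; the numbers share only a label, and deviations of same-numbered lists over the mRNAs correlated at -0.0966. The mean percentile of the best mt-Nd5 peak in CKO went from 97.0 to 70.2 among peaks of 200 bases or more. The unknown read depth limits all of these values. Leaving out a list in turn was added for the dense nuclear stretches after the data had been seen; 0 to 2 of the 25 then reached the mitochondrial ratio. By mRNA, the difference in mt-Nd2 was 339 without CKO 2 and 919 without CKO 1.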
